A study of Mus musculus with 15 samples.

Results

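The TGF-beta and BMP pathway was described through 40 genes chosen by name: 11 ligand genes, 2 genes of ligand processing and storage, 11 receptor genes, 8 Smads, 4 secreted inhibitors and the 4 Id genes, out of 18193 genes measured. All 40 were measured, each through its brightest probe set, the one whose mean over the 15 arrays was highest. They were followed in lung tumours of mice that model SCLC (small cell lung cancer, a fast-growing neuroendocrine tumour), in a study that set the model against the human disease. The groups were 3 tumours that carried p130 Δ/Δ as well as Rb Δ/Δ and p53 Δ/Δ (numbers 11 to 13), called Rb/p53/p130, dissected 6 months after nasal infection with an adenovirus expressing Cre recombinase, 10 tumours that carried Rb Δ/Δ and p53 Δ/Δ only (numbers 1 to 10), called Rb/p53, dissected 8 to 12 months after the same infection, and 2 wild-type, tumour-free adult lungs (numbers 1 and 2). Genotype and time after infection go together, so their parts cannot be told apart, and the strain and the promoter that drives Cre are not given in the sources used here. Whether each array is a mouse of its own is not stated either, and the p-values cover the spread between these samples, which may be technical.

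Ligands of the TGF-beta family bind pairs of type I and type II serine/threonine kinase receptors on the cell surface. TGF-beta and activin receptors phosphorylate Smad2 and Smad3, and BMP receptors phosphorylate Smad1, Smad5 and Smad9, which enter the nucleus with Smad4 and change transcription. Smad6 and Smad7 are induced by the pathway and inhibit it, and Id1, Id2 and Id3, which block basic helix-loop-helix transcription factors, are well-known BMP targets. In lung, BMP signalling through Acvrl1 and Bmpr2 is best known in the vessel wall, and TGF-beta in control of growth and matrix.

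Arrays had median log2 levels between 6.58 and 6.68. Whole tissue was measured, so fewer cells of a type and less RNA per cell cannot be told apart. Endothelial markers fell in both genotypes, 21 of 22 in each, with array means of 7.64 to 8.01 in Rb/p53/p130 tumours, 6.96 to 8.82 in Rb/p53 tumours and 11.13 to 11.67 in normal lung. A low bound was set at 5.05, the largest of the lower quartiles of the arrays, and none of the 22 had a group mean that low. Fibroblast and smooth muscle markers fell for 11 of 17 genes in both genotypes, with means of 7.91 to 8.01 in Rb/p53/p130 tumours, 7.78 to 8.67 in Rb/p53 tumours and 10.11 to 10.64 in normal lung. Alveolar type 1 markers fell for 10 of 11 genes in Rb/p53/p130 and 11 of 11 in Rb/p53 tumours, and alveolar type 2 markers for 4 of 9 in Rb/p53/p130 and 7 of 9 in Rb/p53 tumours. All 8 ciliated cell markers and 5 of 6 mesothelial markers fell in both, and of 9 T, NK and B cell markers 4 fell in Rb/p53/p130 and 7 in Rb/p53 tumours. Of 11 macrophage markers 2 rose and 5 fell in Rb/p53/p130 tumours, and 4 rose and 4 fell in Rb/p53 tumours. All 17 neuroendocrine markers rose in both genotypes. The difference between the 3' and 5' Gapdh control probe sets, a measure of how far RNA reached from its 3' end, was -0.03 to 0.08 in Rb/p53/p130 tumours, -0.07 to 0.36 in Rb/p53 tumours and 0.72 to 0.88 in normal lung. The part of these marker and RNA differences in the results against normal lung was not tested, beyond a fit with the Gapdh difference as a covariate. The brightest Rb1 probe set was above normal lung, by 1.56 in Rb/p53/p130 and 1.31 in Rb/p53 tumours on the log2 scale, and Rbl2, which encodes p130, differed by -0.05 between the tumour genotypes (limma adjusted p = 0.972), so these probe sets did not check the genotypes.

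Against normal lung, the pathway changed in parts and in both directions. The ligand genes Bmp6 and Tgfb2, the receptor genes Acvrl1, Bmpr2 and Tgfbr3 and the inhibitory Smad6 were lower in both genotypes, while Id4 and the inhibin subunit gene Inha were higher. A gene was called at an adjusted p of 0.05 in limma, with Benjamini-Hochberg adjustment over all 45037 probe sets. In Rb/p53/p130 tumours 15 of the 40 genes were called, 4 higher and 11 lower, where 30.9% of all genes were called, 15.3% higher and 15.6% lower. In Rb/p53 tumours 17 were called, 3 higher and 14 lower, where 38.8% of all genes were called, 18.3% higher and 20.5% lower. Both totals lay near the share of all genes, and in both genotypes the lower calls were a larger share of the 40 genes than of all genes. The median log2 difference over the 40 genes was 0.05 in Rb/p53/p130 and 0.02 in Rb/p53 tumours, beside -0.02 over all genes in both. Groups did not overlap for 31 genes in Rb/p53/p130 tumours and 19 in Rb/p53 tumours, against 66.0% and 38.4% of all genes. The 2 comparisons share the same normal lungs. Of the calls, 13 genes were called in both genotypes, Bmp4, Bmp5, Acvr2a and Smad1 in Rb/p53 tumours alone, and Acvr1 and Smad2 in Rb/p53/p130 tumours alone, which is not a test of the genotypes against each other. With the Gapdh difference as a covariate the calls were 4 in Rb/p53/p130 tumours (Id4 higher and Bmp6, Bmpr2 and Acvrl1 lower) and 5 in Rb/p53 tumours (the same genes and Smad7, lower), where 5.17% of all genes were called in Rb/p53/p130 and 6.08% in Rb/p53 tumours. All members that lost their call kept its direction, 11 in Rb/p53/p130 and 12 in Rb/p53 tumours, and the median ratio of the difference with the covariate to that without was 0.91 in Rb/p53/p130 and 0.98 in Rb/p53 tumours.

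**Figure D1:**
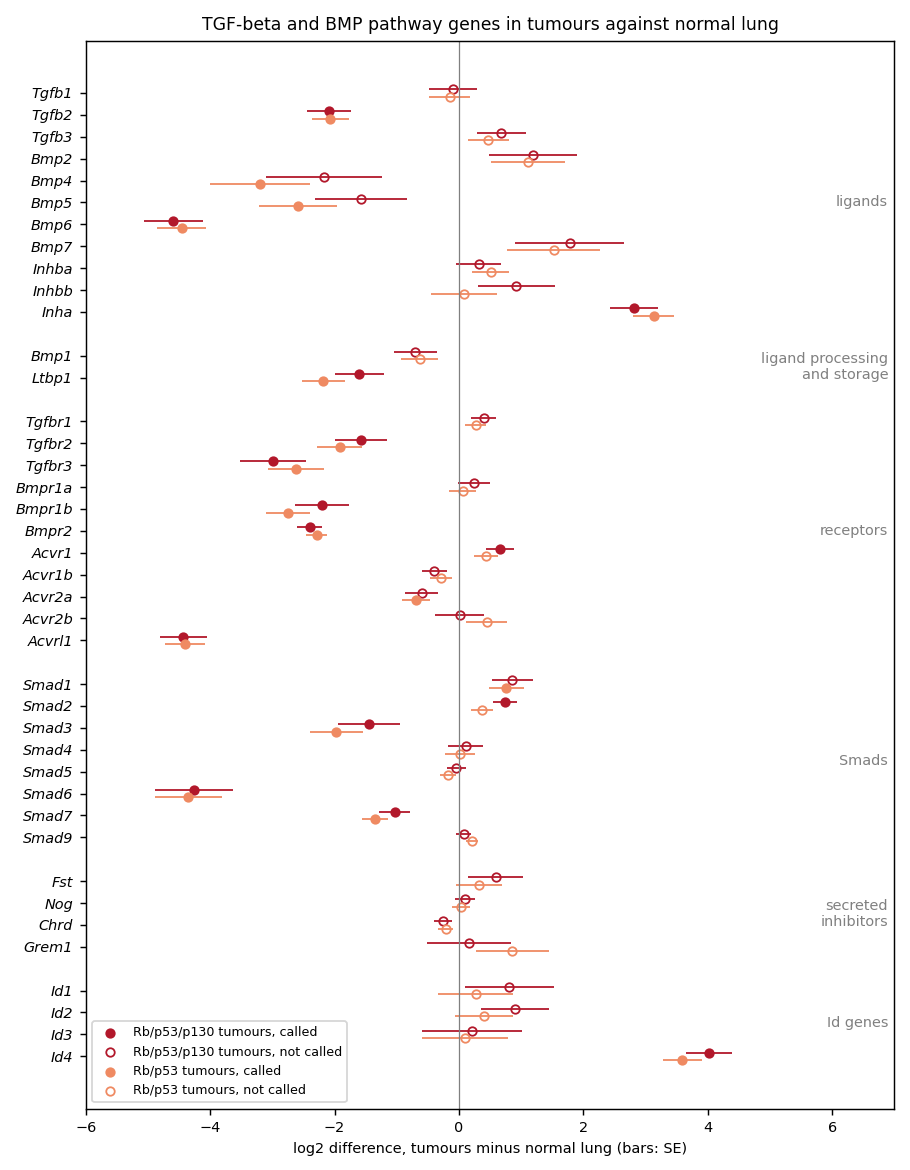
Log2 difference of each pathway gene between tumours and normal lung, with Rb/p53/p130 tumours (dark red, upper of each pair) and Rb/p53 tumours (orange, lower of each pair); bars are the SE from limma and filled points are called. Bmp6, Acvrl1 and Smad6 lie beyond -4 in both genotypes, Id4 and Inha lie between 2.81 and 4.02, and the secreted inhibitors lie between -0.26 and 0.86 and are open.

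The 250 bases before a listed start are shown for Id4 and Inha, which were called higher in both genotypes. Those of Bmp6 and Smad6, which had some of the widest falls, are shown beside them. For Inha the stretch may not be upstream sequence, as set out below. RefSeq (GRCm38.p6) held promoters of 28 of the 40 genes, 34 promoters in all. Capitals mark the letters GGCGCC, a GC-rich Smad site, or CAGAC, the longer Smad box, which reads GTCTG when it lies on the other strand; both strands were searched, and the motifs share no overlapping letters here. The Id4 promoter lies at chr13:48260866-48261115 on the plus strand, with 75.6% G and C and 1 GGCGCC. The stretch listed for Inha lies at chr1:75507359-75507608 on the plus strand, with 53.6% G and C and 1 CAGAC on the other strand. Read in triplets from its first base, it runs without a stop codon well past the marked letters. It may therefore be coding sequence of the gene, and its match is not read as an upstream Smad box. The Bmp6 promoter lies at chr13:38345466-38345715 on the plus strand, with 68.8% G and C and 1 Smad box. The Smad6 promoter lies at chr9:64022060-64022309 on the minus strand, with 66.8% G and C and neither motif.
Id4: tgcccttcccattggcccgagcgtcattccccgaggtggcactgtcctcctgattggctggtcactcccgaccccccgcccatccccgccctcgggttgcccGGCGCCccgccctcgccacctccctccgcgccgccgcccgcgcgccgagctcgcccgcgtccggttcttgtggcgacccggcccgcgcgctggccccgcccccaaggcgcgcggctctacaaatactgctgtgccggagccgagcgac
Inha: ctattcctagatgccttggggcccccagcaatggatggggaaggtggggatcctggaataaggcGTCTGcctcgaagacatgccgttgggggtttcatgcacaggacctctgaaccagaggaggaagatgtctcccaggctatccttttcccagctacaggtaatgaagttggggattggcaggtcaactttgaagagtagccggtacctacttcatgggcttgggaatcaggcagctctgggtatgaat
Bmp6: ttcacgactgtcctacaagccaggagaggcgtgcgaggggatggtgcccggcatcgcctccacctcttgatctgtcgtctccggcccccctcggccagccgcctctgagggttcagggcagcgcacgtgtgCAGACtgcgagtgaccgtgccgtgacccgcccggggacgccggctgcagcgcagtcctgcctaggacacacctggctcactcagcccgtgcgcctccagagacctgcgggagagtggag
Smad6: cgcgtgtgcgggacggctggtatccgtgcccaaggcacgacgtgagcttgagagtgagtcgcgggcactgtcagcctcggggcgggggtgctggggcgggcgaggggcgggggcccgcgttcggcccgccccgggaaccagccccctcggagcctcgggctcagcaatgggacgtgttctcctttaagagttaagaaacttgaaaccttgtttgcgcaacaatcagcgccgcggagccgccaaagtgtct
GGCGCC stood in 9 of the 34 promoters (26.5%) and in 9.59% of all 32851 promoters of the same length, and CAGAC in 15 (44.1%) and in 42.2%. The median share of G and C was 65.2% in the 34 promoters and 52.4% in all, so the promoters compared differ in base composition. CAGCTG, an E-box, stood in 2 of the 34 and in 13.0% of all, and TGACGTCA, the cAMP response element, in 1 and in 1.55%.

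Among the ligand genes, Inha was higher and Bmp6 and Tgfb2 were lower in both genotypes, and Bmp4 and Bmp5 were lower in Rb/p53 tumours. In all, 3 of 11 were called in Rb/p53/p130 tumours, 1 higher and 2 lower, and 5 in Rb/p53 tumours, 1 higher and 4 lower. Of all genes, 30.9% were called in Rb/p53/p130 and 38.8% in Rb/p53 tumours, and the ligand counts lay near these shares. Inha, the alpha subunit of inhibin, which opposes activins, had log2 levels of 9.11, 8.72 and 8.99 in Rb/p53/p130 tumours, a lowest, median and highest of 8.67, 9.18 and 10.12 in Rb/p53 tumours, and 5.91 and 6.35 in the normal lungs. Every tumour lay above both lungs. Inha was 2.81 ± 0.39 higher on the log2 scale in Rb/p53/p130 tumours (SE, limma adjusted p = 9.58e-05) and 3.13 ± 0.33 higher in Rb/p53 tumours (limma adjusted p = 5e-06), folds of 7.01 in Rb/p53/p130 and 8.76 in Rb/p53 tumours. With the Gapdh covariate the difference of Inha was 2.55 in Rb/p53/p130 (limma adjusted p = 0.148) and 2.88 in Rb/p53 tumours (limma adjusted p = 0.0686), neither called.

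Bmp6, a BMP ligand made by endothelial cells, among others, and known for the control of iron, had levels of 6.20, 6.22 and 5.95 in Rb/p53/p130 tumours, 5.34, 6.38 and 6.95 (lowest, median and highest) in Rb/p53 tumours, and 10.22 and 11.19 in the lungs. The highest tumour stood far below the lower lung. Its log2 difference was -4.59 ± 0.47 in Rb/p53/p130 (limma adjusted p = 4.43e-06) and -4.46 ± 0.39 in Rb/p53 tumours (limma adjusted p = 7.58e-07), a level 24 times lower in Rb/p53/p130 and 22 times lower in Rb/p53 tumours. Tgfb2, a TGF-beta ligand needed in heart and lung development, had levels of 6.84, 6.68 and 7.12 in Rb/p53/p130 tumours, 5.88, 7.03 and 7.50 in Rb/p53 tumours, and 9.11 and 8.83 in the lungs. The groups did not overlap, the differences were -2.09 ± 0.35 in Rb/p53/p130 (limma adjusted p = 0.000486) and -2.07 ± 0.30 in Rb/p53 tumours (limma adjusted p = 8.75e-05), and all 4 Tgfb2 probe sets were called lower in both genotypes.

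Bmp4, a BMP ligand of lung branching, had levels of 8.21, 8.63 and 9.46 in Rb/p53/p130 tumours, 6.45, 7.04 and 9.51 in Rb/p53 tumours, and 10.74 and 11.14 in the lungs. All tumours lay below both lungs, but the tumours differed widely among themselves. The difference was -2.17 ± 0.94 in Rb/p53/p130 tumours, which was not called (limma adjusted p = 0.112), and -3.20 ± 0.80 in Rb/p53 tumours, which was (limma adjusted p = 0.00633). Bmp5, a related BMP ligand, had levels of 8.12, 8.69 and 8.90 in Rb/p53/p130 tumours, 6.40, 7.21 and 9.26 in Rb/p53 tumours, and 10.17 and 10.13 in the lungs. Its difference of -1.58 ± 0.74 in Rb/p53/p130 tumours was not called (limma adjusted p = 0.145), and that of -2.59 ± 0.63 in Rb/p53 tumours was (limma adjusted p = 0.00533). A dimmer Bmp5 probe set was called lower in both genotypes, with differences of -1.77 in Rb/p53/p130 and -2.78 in Rb/p53 tumours. Without normal lung 2 the calls of Bmp4 (-3.00, limma adjusted p = 0.0766) and Bmp5 (-2.61, limma adjusted p = 0.0526) in Rb/p53 tumours were lost, and without normal lung 1 that of Bmp5 (-2.57, limma adjusted p = 0.058).

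The other 6 ligand genes were not called in either genotype. Bmp7, a BMP ligand of kidney and eye development, had levels of 8.09, 8.72 and 8.33 in Rb/p53/p130 tumours, 6.73, 7.68 and 10.28 in Rb/p53 tumours, and 6.51 and 6.69 in the lungs, with differences of 1.78 ± 0.88 in Rb/p53/p130 (limma adjusted p = 0.164) and 1.52 ± 0.74 in Rb/p53 tumours (limma adjusted p = 0.139). Every tumour lay above both lungs, and a dimmer Bmp7 probe set was called higher in both, by 2.55 in Rb/p53/p130 (limma adjusted p = 0.0404) and 2.16 in Rb/p53 tumours (limma adjusted p = 0.0329). Bmp2, a ligand of bone and heart formation, differed by 1.19 in Rb/p53/p130 (95% interval from limma, -0.34 to 2.71) and 1.11 in Rb/p53 tumours (-0.18 to 2.41). The activin subunit genes Inhba and Inhbb differed by 0.32 and 0.92 in Rb/p53/p130 tumours and by 0.51 and 0.08 in Rb/p53 tumours. Tgfb1, the TGF-beta of wound and immune control, differed by -0.10 in Rb/p53/p130 and -0.15 in Rb/p53 tumours, and Tgfb3, known from palate closure, by 0.68 in Rb/p53/p130 and 0.47 in Rb/p53 tumours.

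Of the genes of processing and storage, Ltbp1, which ties latent TGF-beta to the matrix, was lower in both genotypes. It had levels of 8.24, 8.35 and 8.21 in Rb/p53/p130 tumours, 6.97, 7.55 and 8.80 in Rb/p53 tumours, and 9.71 and 10.02 in the lungs, without overlap. The differences were -1.60 ± 0.40 in Rb/p53/p130 (limma adjusted p = 0.00901) and -2.18 ± 0.34 in Rb/p53 tumours (limma adjusted p = 0.000185). Without normal lung 2 the call in Rb/p53/p130 tumours was lost (-1.44, limma adjusted p = 0.0786). Bmp1, a protease that cuts procollagen and the BMP inhibitor chordin, differed by -0.70 in Rb/p53/p130 and -0.63 in Rb/p53 tumours and was not called. It was called lower in Rb/p53 tumours without tumour 5 (-0.73, limma adjusted p = 0.0235).

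Receptor genes were mostly lower or not called. In Rb/p53/p130 tumours 1 of 11 was called higher and 5 lower, and in Rb/p53 tumours 6 were called lower. Of all genes, 15.6% were called lower in Rb/p53/p130 and 20.5% in Rb/p53 tumours. The type I receptor Acvrl1 (ALK1), which carries BMP signals in endothelial cells, had levels of 6.35, 6.14 and 6.07 in Rb/p53/p130 tumours, 5.75, 6.01 and 7.09 in Rb/p53 tumours, and 10.39 and 10.85 in the lungs. No tumour came within 3 log2 units of a lung. The differences were -4.43 ± 0.38 in Rb/p53/p130 (limma adjusted p = 8.16e-07) and -4.40 ± 0.32 in Rb/p53 tumours (limma adjusted p = 1.13e-07), folds of 21.6 in Rb/p53/p130 and 21.1 in Rb/p53 tumours, and the dimmer Acvrl1 probe set was also called lower in both. Bmpr2, the type II BMP receptor mutated in heritable pulmonary arterial hypertension, had levels of 11.15, 11.09 and 11.30 in Rb/p53/p130 tumours, 10.92, 11.36 and 11.66 in Rb/p53 tumours, and 13.42 and 13.74 in the lungs. The tumours lay close together and well below the lungs, with differences of -2.40 ± 0.20 in Rb/p53/p130 (limma adjusted p = 5.52e-07) and -2.29 ± 0.17 in Rb/p53 tumours (limma adjusted p = 1.14e-07), and all 3 Bmpr2 probe sets were called lower.

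Tgfbr3 (betaglycan), a co-receptor that presents TGF-beta2, had levels of 9.75, 9.30 and 8.63 in Rb/p53/p130 tumours, 7.94, 9.81 and 10.42 in Rb/p53 tumours, and 12.02 and 12.42 in the lungs. Its differences were -2.99 ± 0.53 in Rb/p53/p130 (limma adjusted p = 0.000689) and -2.62 ± 0.45 in Rb/p53 tumours (limma adjusted p = 0.000379), without overlap of the groups. Tgfbr2, the type II receptor that all 3 TGF-beta ligands use, had levels of 10.60, 10.42 and 10.27 in Rb/p53/p130 tumours, 9.47, 10.10 and 10.83 in Rb/p53 tumours, and 11.59 and 12.42 in the lungs. The differences were -1.57 ± 0.42 in Rb/p53/p130 (limma adjusted p = 0.0128) and -1.92 ± 0.36 in Rb/p53 tumours (limma adjusted p = 0.000751), and the call in Rb/p53/p130 tumours was lost without normal lung 2 (-1.16, limma adjusted p = 0.158). Bmpr1b, a type I BMP receptor known from cartilage and ovary, had levels of 5.76, 5.63 and 7.39 in Rb/p53/p130 tumours, 5.22, 5.60 and 6.25 in Rb/p53 tumours, and 8.70 and 8.23 in the lungs. Tumour 13 stood above the other tumours but below both lungs, and the differences were -2.20 ± 0.43 in Rb/p53/p130 (limma adjusted p = 0.00148) and -2.75 ± 0.36 in Rb/p53 tumours (limma adjusted p = 3.83e-05).

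The other receptor genes moved by less than 1 log2 unit. Acvr2a, a type II receptor of activins and BMPs, had a difference of -0.60 ± 0.27 in Rb/p53/p130 tumours (limma adjusted p = 0.125) and of -0.69 ± 0.23 in Rb/p53 tumours, which was called (limma adjusted p = 0.0322). That call was lost without either lung, at -0.81 without lung 1 and -0.56 without lung 2, and with the mean of the probe sets. The dimmer Acvr2a probe set went the other way, by 0.51 in Rb/p53/p130 (limma adjusted p = 0.324) and 0.41 in Rb/p53 tumours (limma adjusted p = 0.325), neither called. Acvr1 (ALK2), a type I BMP receptor, was called higher in Rb/p53/p130 tumours, by 0.66 ± 0.23 (limma adjusted p = 0.0468), and was 0.43 ± 0.19 above in Rb/p53 tumours (limma adjusted p = 0.11). Its call was lost when any single array was left out, the 3 tumours and the 2 lungs in turn, with differences of 0.53 (without lung 1) to 0.80 (without lung 2). A dimmer Acvr1 probe set was called higher in both genotypes, by 0.96 in Rb/p53/p130 (limma adjusted p = 0.0138) and 0.73 in Rb/p53 tumours (limma adjusted p = 0.0196). The dimmest, at -0.17 in Rb/p53/p130 and -0.19 in Rb/p53 tumours, was not called. Tgfbr1, the type I partner of Tgfbr2, differed by 0.40 in Rb/p53/p130 and 0.27 in Rb/p53 tumours. The activin receptor genes differed by -0.40 in Rb/p53/p130 and -0.29 in Rb/p53 tumours for Acvr1b, and by 0.01 in Rb/p53/p130 and 0.45 in Rb/p53 tumours for Acvr2b, and none of the 3 was called. Bmpr1a, a broadly made type I BMP receptor, differed by 0.24 in Rb/p53/p130 and 0.06 in Rb/p53 tumours on its brightest probe set, while 3 of its 5 dimmer ones were called lower in Rb/p53 tumours (-0.57 to -0.74).

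**Figure D2:**
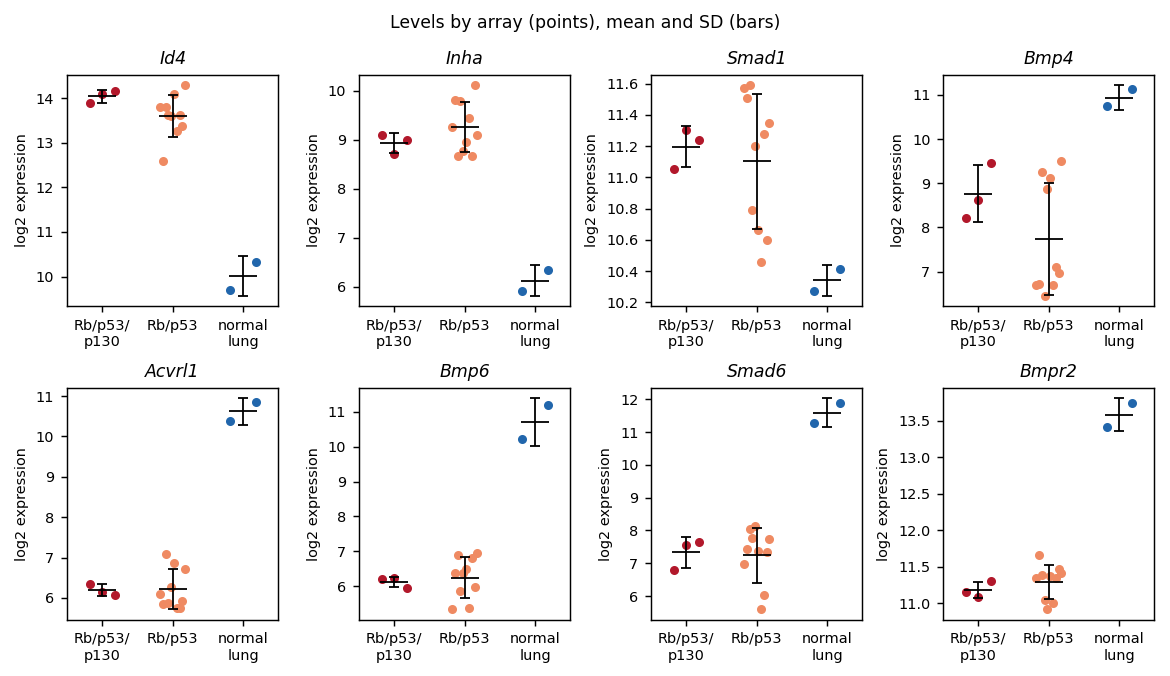
Log2 levels of 8 pathway genes on every array (points), with mean and SD (bars), for Rb/p53/p130 tumours (3), Rb/p53 tumours (10) and normal lung (2); each panel has its own axis, which does not start at 0. Id4, Inha and Smad1 were above both lungs in every tumour, the other 5 genes were below both lungs in every tumour, and Bmp4 spanned 6.45 to 9.51 among Rb/p53 tumours.

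Among the Smads, the inhibitory Smad6 and Smad7 and the TGF-beta effector Smad3 were lower in both genotypes. In Rb/p53/p130 tumours 1 of 8 was called higher and 3 lower. The same counts were found in Rb/p53 tumours, where the higher one was Smad1 in place of Smad2. Calls over all genes came to 30.9% in Rb/p53/p130 and 38.8% in Rb/p53 tumours. Smad6, the inhibitor that acts mainly on BMP receptors, had levels of 6.80, 7.55 and 7.65 in Rb/p53/p130 tumours, 5.60, 7.39 and 8.12 in Rb/p53 tumours, and 11.29 and 11.90 in the lungs. Every tumour lay more than 3 log2 units below the lungs, and the differences were -4.26 ± 0.63 in Rb/p53/p130 (limma adjusted p = 0.000161) and -4.35 ± 0.54 in Rb/p53 tumours (limma adjusted p = 2.02e-05), folds of 19.2 in Rb/p53/p130 and 20.4 in Rb/p53 tumours. With the Gapdh covariate they were -3.26 in Rb/p53/p130 (limma adjusted p = 0.251) and -3.40 in Rb/p53 tumours (limma adjusted p = 0.175). Smad7, which inhibits TGF-beta and BMP receptors alike, had levels of 8.95, 9.12 and 9.27 in Rb/p53/p130 tumours, 8.05, 8.83 and 9.08 in Rb/p53 tumours, and 9.84 and 10.45 in the lungs. Its differences were -1.03 ± 0.25 in Rb/p53/p130 (limma adjusted p = 0.00641) and -1.35 ± 0.21 in Rb/p53 tumours (limma adjusted p = 0.00016), and both Smad7 probe sets were called lower. The Smad7 call in Rb/p53/p130 tumours was lost without normal lung 2 (-0.72, limma adjusted p = 0.114).

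Smad3 had levels of 8.54, 8.63 and 9.21 in Rb/p53/p130 tumours, 7.33, 8.14 and 9.24 in Rb/p53 tumours, and 10.43 and 10.05 in the lungs. The groups did not overlap, with differences of -1.45 ± 0.50 in Rb/p53/p130 (limma adjusted p = 0.0467) and -1.97 ± 0.42 in Rb/p53 tumours (limma adjusted p = 0.0022). The call in Rb/p53/p130 tumours was lost without tumour 11 (-1.32), tumour 12 (-1.36), lung 1 (-1.25) or lung 2 (-1.64). The 2 dimmer Smad3 probe sets were not called. Smad1, a BMP effector, had levels of 11.05, 11.30 and 11.24 in Rb/p53/p130 tumours, 10.46, 11.24 and 11.59 in Rb/p53 tumours, and 10.27 and 10.41 in the lungs. Every tumour lay above both lungs, by 0.86 ± 0.33 in Rb/p53/p130 tumours (limma adjusted p = 0.0698, not called) and by 0.76 ± 0.28 in Rb/p53 tumours (limma adjusted p = 0.0484, called). The Rb/p53 call was lost without tumour 1, 2, 3, 5, 8 or 10 or either lung, with differences of 0.69 to 0.83, while a dimmer Smad1 probe set was called higher in both genotypes, by 0.83 in Rb/p53/p130 and 1.05 in Rb/p53 tumours.

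Smad2, the second TGF-beta effector, had levels of 9.72, 9.51 and 9.58 in Rb/p53/p130 tumours, 8.72, 9.27 and 9.57 in Rb/p53 tumours, and 8.78 and 8.93 in the lungs. It was called higher in Rb/p53/p130 tumours, by 0.74 ± 0.20 (limma adjusted p = 0.0118), and was 0.37 ± 0.17 above the lungs in Rb/p53 tumours, where tumour 1 overlapped them (limma adjusted p = 0.106). Without lung 1 the Smad2 call was lost (0.67), and without tumour 1 Smad2 was called in Rb/p53 tumours too (0.43, limma adjusted p = 0.0209). The call in Rb/p53/p130 tumours was also lost with the mean of the probe sets and without suffixed probe sets. The dimmer Smad2 probe set differed by 0.18 in Rb/p53/p130 (limma adjusted p = 0.828) and -0.0 in Rb/p53 tumours (limma adjusted p = 0.996), neither called. Smad4, the partner common to both branches, differed by 0.11 in Rb/p53/p130 (95% interval -0.50 to 0.72) and 0.01 in Rb/p53 tumours (-0.51 to 0.52). The BMP effector Smad5 differed by -0.04 in Rb/p53/p130 and -0.17 in Rb/p53 tumours, while 1 dimmer Smad5 probe set was called higher in Rb/p53/p130 tumours, by 0.96, and another in Rb/p53 tumours, by 0.45. Smad9, the third BMP effector, had group means at or below the low bound, as did the BMP inhibitor Nog, so neither gives a fold.

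None of the 4 secreted inhibitors was called in either genotype, where 30.9% of all genes were called in Rb/p53/p130 and 38.8% in Rb/p53 tumours. Fst (follistatin), which binds activins, differed by 0.59 ± 0.44 in Rb/p53/p130 and 0.32 ± 0.37 in Rb/p53 tumours. The dimmer Fst probe set differed by 1.53 in Rb/p53/p130 (limma adjusted p = 0.0717) and 0.8 in Rb/p53 tumours (limma adjusted p = 0.252). Neither was called. Chrd (chordin), which binds BMPs, differed by -0.26 in Rb/p53/p130 and -0.21 in Rb/p53 tumours. Grem1 (gremlin), another BMP antagonist, had levels of 5.49, 5.30 and 4.93 in Rb/p53/p130 tumours, 5.09, 5.49 and 7.55 in Rb/p53 tumours, and 4.97 and 5.19 in the lungs. Rb/p53 tumours 4 and 10 stood apart at 7.55 and 7.42, and the difference was 0.16 in Rb/p53/p130 (limma adjusted p = 0.903) and 0.86 in Rb/p53 tumours (limma adjusted p = 0.296).

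Of the Id genes, only Id4 was called, and it was higher in both genotypes. Id4, an Id protein abundant in neural progenitors, had levels of 13.88, 14.09 and 14.15 in Rb/p53/p130 tumours, 12.58, 13.63 and 14.29 in Rb/p53 tumours, and 9.70 and 10.33 in the lungs. Every tumour lay more than 2 log2 units above both lungs. The differences were 4.02 ± 0.37 in Rb/p53/p130 (limma adjusted p = 1.58e-06) and 3.59 ± 0.31 in Rb/p53 tumours (limma adjusted p = 6.32e-07), folds of 16.3 in Rb/p53/p130 and 12.0 in Rb/p53 tumours, and all 3 Id4 probe sets were called higher. With the Gapdh covariate Id4 kept its call, at 3.51 in Rb/p53/p130 (limma adjusted p = 0.0308) and 3.1 in Rb/p53 tumours (limma adjusted p = 0.0351).

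Id1, Id2 and Id3, which hold back differentiation in many cell types, were not called against normal lung, and their intervals were wide. Id1 had levels of 11.43, 12.37 and 12.07 in Rb/p53/p130 tumours, 9.08, 11.84 and 12.16 in Rb/p53 tumours, and 10.83 and 11.46 in the lungs, with differences of 0.81 (95% interval -0.71 to 2.33) in Rb/p53/p130 and 0.27 (-1.02 to 1.56) in Rb/p53 tumours. Id2 had levels of 11.61, 12.55 and 12.20 in Rb/p53/p130 tumours, 10.31, 11.60 and 12.44 in Rb/p53 tumours, and 11.32 and 11.12 in the lungs, with differences of 0.90 (-0.28 to 2.07) in Rb/p53/p130 and 0.40 (-0.60 to 1.40) in Rb/p53 tumours. The dimmer Id2 probe sets differed by 1.41 and 1.32 in Rb/p53/p130 and by 1.31 and 1.34 in Rb/p53 tumours, and were not called. Id3 had levels of 10.90, 11.48 and 11.22 in Rb/p53/p130 tumours, 9.79, 10.78 and 13.20 in Rb/p53 tumours, and 10.84 and 11.15 in the lungs, with differences of 0.21 (-1.52 to 1.94) in Rb/p53/p130 and 0.10 (-1.37 to 1.57) in Rb/p53 tumours. The Rb/p53 tumours lay on both sides of the lungs for all 3 genes.

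The wider pathway was read from 85 further genes, of which 74 were measured. In Rb/p53/p130 tumours 5 were called higher and 21 lower, with a median log2 difference of -0.20, and in Rb/p53 tumours 5 higher and 25 lower, with a median of -0.26. These shares, too, lay near the 30.9% and 38.8% of all genes called in Rb/p53/p130 and Rb/p53 tumours, with more lower calls than the 15.6% in Rb/p53/p130 and 20.5% in Rb/p53 tumours of all genes, and the lists below are read against the same shares. Receptors and co-receptors were called lower for 5 of 7 genes in both. Eng (endoglin), the endothelial co-receptor that works with Acvrl1, differed by -3.13 in Rb/p53/p130 and -2.76 in Rb/p53 tumours. The BMP co-receptor Rgmb differed by -2.30 in Rb/p53/p130 and -2.43 in Rb/p53 tumours, and Amhr2, the anti-Mullerian hormone receptor, by -2.12 in Rb/p53/p130 and -2.05 in Rb/p53 tumours. Genes of latency and activation were called lower for 6 of 10 in both. They included Ltbp4, a latent TGF-beta binding protein, at -2.12 in Rb/p53/p130 and -1.92 in Rb/p53 tumours, and the integrin subunit Itgb6, which activates TGF-beta, at -1.76 in Rb/p53/p130 and -1.64 in Rb/p53 tumours. Emilin1 was called lower in both, at -1.92 in Rb/p53/p130 and -1.57 in Rb/p53 tumours, as was Nrros, at -1.70 in both. Thbs1, a matrix protein that can activate TGF-beta, differed by 2.15 in Rb/p53/p130 tumours without overlap of the groups, which was not called (limma adjusted p = 0.0545), and by 1.92 in Rb/p53 tumours with overlap, which was (limma adjusted p = 0.0359).

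Among further ligands 1 of 16 was called lower in Rb/p53/p130 and 3 in Rb/p53 tumours, and Gdf10 differed most, by -3.20 in Rb/p53/p130 and -2.96 in Rb/p53 tumours. Gdf9 and Bmp15, which are known from the oocyte, were called lower in Rb/p53 tumours but not in Rb/p53/p130 tumours. Gdf9 differed by -0.46 in Rb/p53/p130 (limma adjusted p = 0.051) and -0.56 in Rb/p53 tumours, and Bmp15 by -0.34 in both, with means of 4.67 in the tumours of each genotype and 5.01 in normal lung, all below the low bound. Of the further secreted inhibitors 1 of 12 was called higher and 3 lower in both. Bmper, a BMP modulator of endothelial cells, differed by -2.88 in Rb/p53/p130 and -2.79 in Rb/p53 tumours, and Crim1, which binds BMPs, by -1.93 in Rb/p53/p130 and -1.24 in Rb/p53 tumours. Fstl3, a relative of follistatin, differed by -1.35 in Rb/p53/p130 and -1.03 in Rb/p53 tumours, and Cer1, the antagonist cerberus, by 1.36 in Rb/p53/p130 and 1.02 in Rb/p53 tumours.

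Of 18 intracellular regulators 3 were called higher and 3 lower in Rb/p53/p130, and 3 and 5 in Rb/p53 tumours. The Smad co-repressor Tgif1 was higher by 1.47 in Rb/p53/p130 and 1.40 in Rb/p53 tumours, and the receptor-binding Strap by 1.17 in Rb/p53/p130 and 1.24 in Rb/p53 tumours. The ubiquitin ligase genes Wwp1 and Nedd4l were called lower in both, with differences of -2.0 in Rb/p53/p130 and -2.16 in Rb/p53 tumours for Wwp1, and of -1.09 in Rb/p53/p130 and -1.57 in Rb/p53 tumours for Nedd4l. The Smad ubiquitin ligase gene Smurf2 was called lower in both too, at -0.90 in Rb/p53/p130 and -1.21 in Rb/p53 tumours. Usp15 differed by 1.04 in Rb/p53/p130 tumours, which was called, and by 0.64 in Rb/p53 tumours, which was not (limma adjusted p = 0.0591). Ppm1a, a phosphatase of Smads, differed by 0.57 in Rb/p53/p130 tumours, not called, and by 0.61 in Rb/p53 tumours, called, and Zfyve16 by -0.69 in Rb/p53/p130 tumours, not called, and by -1.22 in Rb/p53 tumours, called. Of 11 TGF-beta target genes 1 was called higher and 3 lower in Rb/p53/p130, and 0 higher and 3 lower in Rb/p53 tumours. The smooth muscle gene Tagln differed by -2.36 in Rb/p53/p130 and -1.80 in Rb/p53 tumours, the mesenchymal factor Snai2 by -2.74 in Rb/p53/p130 and -2.52 in Rb/p53 tumours, and the matricellular Ccn2 by -1.40 in Rb/p53/p130 and -1.50 in Rb/p53 tumours. Klf10, an early TGF-beta gene, differed by 1.01 in Rb/p53/p130 tumours, which was called, and by 0.58 in Rb/p53 tumours, which was not (limma adjusted p = 0.114).

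Between the tumour genotypes no pathway gene was called. Of the 40 genes 0 passed in limma, where 0.0715% of all genes did (0.0220% higher and 0.0495% lower), and 1 had an unadjusted p under 0.05 (Smad2), where 7.26% of all genes did. The groups overlapped for all 40 genes, where 1.97% of all genes did not overlap. Smad2 was 0.37 ± 0.14 higher in Rb/p53/p130 than in Rb/p53 tumours (95% interval 0.07 to 0.67, limma adjusted p = 0.374), and 2 of its 3 levels (9.72 and 9.58) lay above the highest Rb/p53 tumour (9.57). With arrays weighted by limma it was called, at 0.38 (limma adjusted p = 0.0353), where 3.64% of all genes were. The dimmer Smad2 probe set differed by 0.18 between the genotypes (limma adjusted p = 0.909). The widest differences were those of Bmp4, at 1.03 ± 0.68 (-0.43 to 2.48), and Bmp5, at 1.01 ± 0.54 (-0.13 to 2.16), followed by Inhbb, at 0.83 ± 0.45 (-0.13 to 1.79), and Grem1, at -0.69 ± 0.49 (-1.75 to 0.36). The 3 Rb/p53/p130 tumours had Inhbb levels of 10.67, 10.59 and 10.70, beside 8.32, 9.90 and 10.77 (lowest, median and highest) in Rb/p53 tumours. The narrowest intervals were those of Smad9, Smad5, Chrd, Nog, Smad2, Bmpr2, Tgfbr1 and Acvr1b, while those of Bmp2 (-1.02 to 1.17), Bmp7 (-1.09 to 1.61) and Id3 (-1.14 to 1.36) reached beyond 1 log2 unit on both sides of 0. None of the 74 further genes was called either. The smallest p in each list belonged to Nodal, Eng, Itgb8, Crim1, Smurf2 and Tagln, with Itgb8, an integrin subunit that activates TGF-beta, at 1.15 (limma adjusted p = 0.223).

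**Figure D3:**
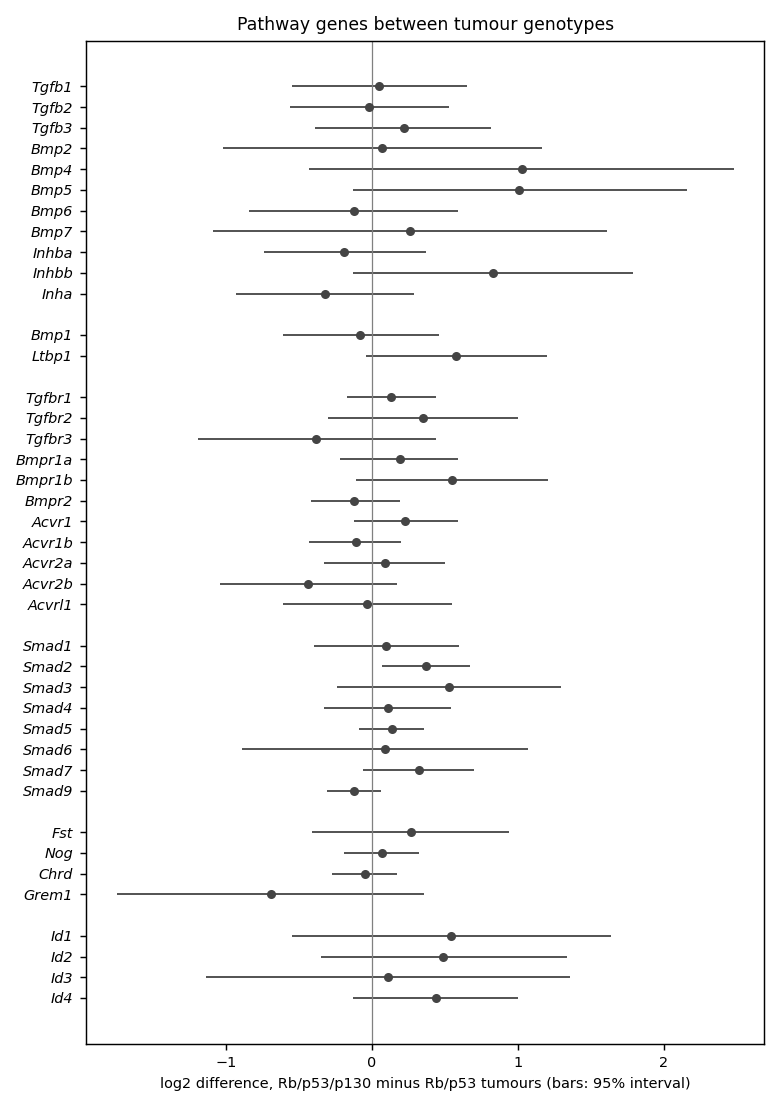
Log2 difference of each pathway gene, Rb/p53/p130 minus Rb/p53 tumours, with limma 95% intervals as bars. Intervals of all genes but Smad2 (0.07 to 0.67) include 0, and the widest are those of Bmp4, Bmp7 and Id3.

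Among the 10 Rb/p53 tumours the pathway genes varied more than most genes. Their median SD was 0.50 on the log2 scale, beside 0.28 for all genes, with 25 of 40 above the 75th percentile of all genes, 10 above the 90th and 4 (Smad5, Smad9, Nog and Chrd) below the 25th. The most variable were Bmp4 (SD 1.27, 98.4th percentile), Bmp7 (1.2), Id3 (1.11), Bmp5 (1.01), Bmp2 (0.94), Id1 (0.94) and Grem1 (0.93). Receptors varied less than these, from 0.21 for Acvr1b to 0.67 for Tgfbr3, as did Smads, from 0.12 for Smad9 to 0.83 for Smad6. No test was made of this spread, since SD also depends on the level of a gene.

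Bmp4 and Bmp5 had a like order among the tumours. In Rb/p53 tumours 1 to 10, in that order, Bmp4 had log2 levels of 6.69, 6.71, 9.25, 6.45, 8.88, 9.12, 6.69, 7.11, 6.97 and 9.51. Its 4 highest levels were those of tumours 3, 5, 6 and 10, and no tumour lay between 7.11 and 8.88. Bmp5 was highest in tumours 10, 6, 3 and 5 too, at 9.26, 8.83, 8.30 and 8.17, with 6.40 to 7.22 in the other 6. The alveolar type 2 marker means of tumours 1 to 10 were 10.36, 10.67, 12.03, 10.00, 11.68, 12.05, 9.36, 8.97, 10.31 and 11.89, and the 2 normal lungs lay at 12.99 and 13.39. The 4 highest of these, and the 4 highest endothelial means (8.82, 8.21, 8.79 and 8.68 in tumours 3, 5, 6 and 10), belonged to the same tumours. The part of these cells in Bmp4 and Bmp5 was not tested. Ltbp1, Smad3, Smad7, Acvrl1 and Tgfbr2 also had their 4 highest levels in tumours 3, 5, 6 and 10.

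Bmp7 and Bmp2 had other orders. Bmp7 was highest in tumours 3 and 10, at 10.28 and 9.58, followed by tumours 5 and 9 at 8.95 and 8.73, and lowest in tumour 1, at 6.73. Bmp2 was highest in tumours 4 and 2, at 10.47 and 10.18, and lowest in tumour 10, at 7.93. Tumour 10 had the highest level in 12 of the 40 genes and tumours 1 and 7 the lowest in 11 each. These ranks were not counted over all genes, so they are not read as a trait of the pathway. Array medians were 6.68 in tumour 10, 6.59 in tumour 7 and 6.64 in tumour 1. Inhbb was lowest in tumours 8 and 7, at 8.32 and 8.46, and lay between 9.56 and 10.77 in the other tumours.

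**Figure D4:**
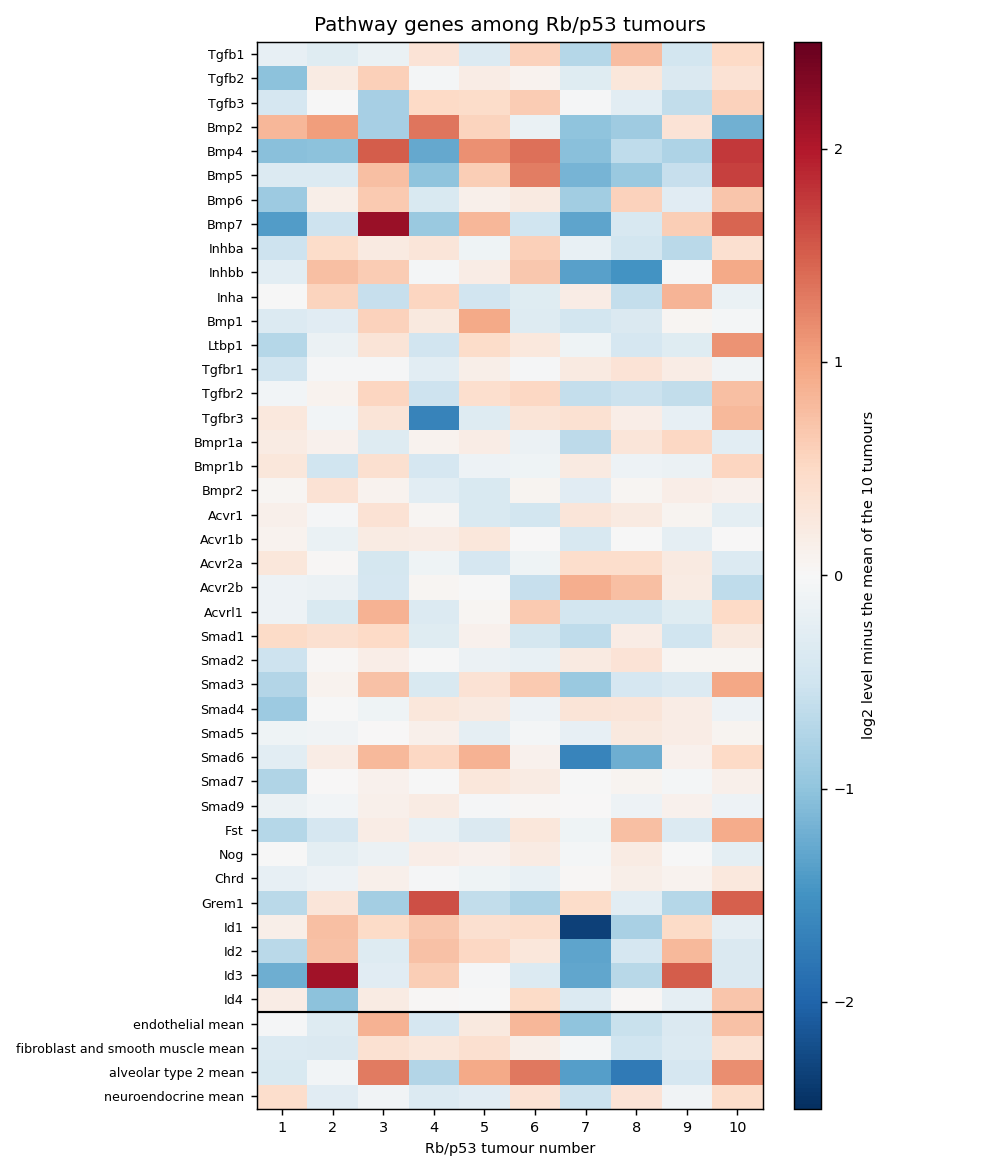
Log2 level of each pathway gene (rows) in the 10 Rb/p53 tumours (columns), minus the gene's mean over the 10 tumours, with marker list means in the bottom 4 rows; red is above and blue below the mean. Bmp4 and Bmp5 were above their mean in tumours 3, 5, 6 and 10, as was the alveolar type 2 mean, Id3 was highest in tumour 2, and Id1 was lowest in tumour 7.

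The Id genes, Smad6 and Smad7 were set against each other, in 15 pairs over the 10 tumours. Each of these 6 genes was also set against the endothelial marker mean. This gave 21 relations, with permutation p-values adjusted over all 21. Id1 was highest in tumour 2 (12.16) and lowest in tumour 7 (9.08), Id2 highest in tumour 9 (12.44) and lowest in tumour 7 (10.31), and Id3 highest in tumour 2 (13.20) and lowest in tumour 7 (9.79). Id2 and Id3 had r = 0.86 (permutation p = 0.00087, adjusted 0.0172) and rho = 0.95 (permutation p = 0.00016, adjusted 0.00336), and r = 0.81 without tumours 7 and 9 (exact permutation p = 0.000546). Id1 and Id2 had r = 0.82 (permutation p = 0.00164, adjusted 0.0172) and rho = 0.87 (permutation p = 0.00226, adjusted 0.0158), and r = 0.73 without tumours 7 and 8. Id1 and Id3 had r = 0.63 (permutation p = 0.0484, adjusted 0.145) and rho = 0.92 (permutation p = 0.00064, adjusted 0.00672), so the order of tumours was shared more closely than the levels.

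Id1 and Smad6 had r = 0.85 (permutation p = 0.00543, adjusted 0.038) but rho = 0.52 (permutation p = 0.134, adjusted 0.282). Without tumours 7 and 8, where both genes were lowest (Id1 9.08 and 10.61, Smad6 5.60 and 6.03), r was 0.06 (permutation p = 0.892), so the relation rested on those tumours. Without tumour 7 the relation of Id2 and Id3 was the one called, at r = 0.85, with Id1 and Id2 at 0.69 and Id1 and Smad6 at 0.68. The endothelial mean had r = 0.70 with Smad6 (permutation p = 0.0237, adjusted 0.124; rho = 0.62, adjusted 0.235) and r = 0.66 with Id4 (permutation p = 0.0321, adjusted 0.135; rho = 0.67, adjusted 0.203), neither called. Id4 had no called relation with the other Id genes, with r = 0.02 with Id1, -0.26 with Id2 and -0.58 with Id3 (adjusted permutation p = 0.943, 0.682 and 0.205). In the same order rho was -0.18, -0.21 and -0.31 (adjusted permutation p = 0.831, 0.784 and 0.677). These r values moved when pairs of tumours were left out. That with Id1 was -0.73 without tumours 7 and 8 (permutation p = 0.0556), that with Id2 -0.54 without tumours 7 and 9, and that with Id3 0.23 without tumours 2 and 9. The labels and files used here name no batch of arrays, so there is no value within batches.

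**Figure D5:**
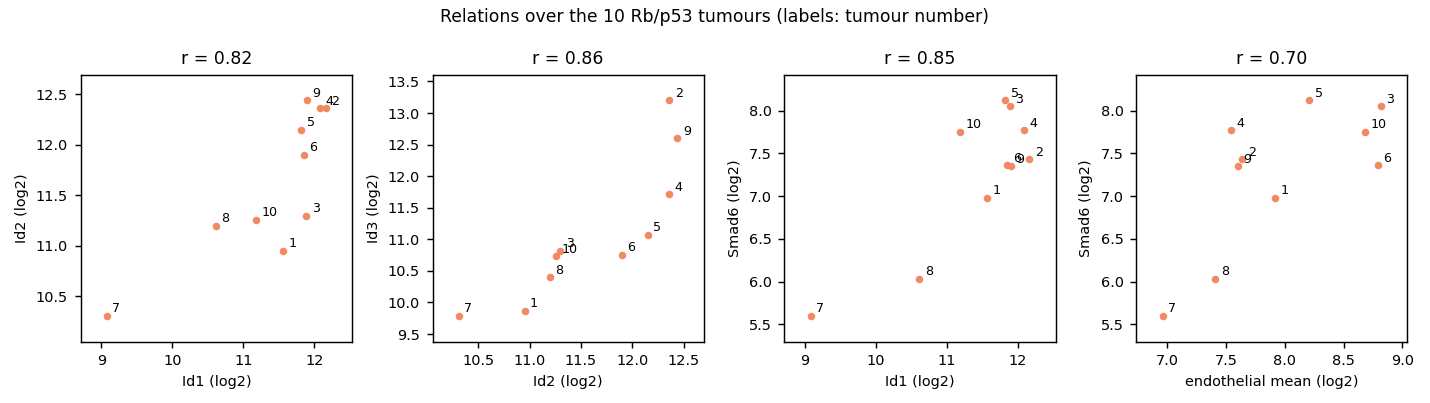
Log2 levels in the 10 Rb/p53 tumours (points, labelled by tumour number) for Id1 and Id2, Id2 and Id3, Id1 and Smad6, and the endothelial marker mean and Smad6; r is Pearson's. In the third panel tumours 7 and 8 lie apart at the lower left, and the other 8 show no trend (r = 0.06).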

How the data were processed

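Total RNA of 13 lung tumours and 2 normal lungs was isolated with Trizol, amplified in a pair of rounds with a RiboAmp kit and hybridised to Affymetrix mouse arrays, per the labels' protocols. The authors deposited log2 levels of each probe set on each array. They used RMA, per the submitters' processing notes, a method that corrects background, normalises arrays to each other by quantiles and summarises probes, with no version stated there. Such normalisation would hide a change shared by most genes, and amplification favours sequence near the 3' end. Precision is limited by how many arrays each group has.

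The table held 45101 probe sets, and tests ran on the 45037 that were not among its 64 controls. A single symbol was listed for 34945 of them, more than 1 for 932 and no symbol for 9160; RefSeq (GRCm38.p6) held 34741 of the single ones. Each of 18193 genes was read from the probe set with the highest mean. Differences came from lmFit and eBayes of limma 3.58.1, run in R 4.3.3 on all 3 groups together, with Benjamini-Hochberg adjustment over probe sets and calls at 0.05. Errors are SE for differences. The fit was tested on simulated data. Correlations used 100000 permutations, and figures matplotlib 3.10.9 in Python 3.11.15. Members and lists were chosen with earlier results of these data known. All 40 members are accounted for. Of each list of further pathway genes the text names up to 3 called rises and 3 called falls per comparison, or the gene with the smallest p. Alternatives left out each array, normalised again, centred arrays, kept brighter probe sets, dropped suffixed probe sets, averaged probe sets, weighted arrays, changed the prior, fitted the compared groups alone, blocked on array number and added the Gapdh difference. The same-numbered tumour and lung deviated from their group means with correlations of 0.00 and -0.06, so the numbers were not taken to pair samples.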

Additional observations from a re-analysis of the deposited data

Results flagged for a closer look

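Within the 10 Rb/p53 tumours, the highest or lowest tumour of a gene was looked at where its gap to the next tumour passed Dixon's 95% critical value. Tgfbr3 in tumour 4 lay at a log2 level of 7.94, with 9.29 in the next lowest tumour. Smad4 in tumour 1 lay at 10.90, with 11.68 in the next lowest. Smad7 in tumour 1 lay at 8.05, with 8.75 in the next lowest. Id1 in tumour 7 lay at 9.08, with 10.61 in the next lowest. These are 4 of the 40 pathway genes, and 8.81% of all genes had such a tumour; chance gives about 1 in 20 groups. The Gapdh difference was 0.24, 0.14 and 0.36 in tumours 1, 2 and 3, and at most 0.06 in the other Rb/p53 tumours. Its part in the levels of tumour 1 was not tested.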

How the results depend on the processing

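The Gapdh difference did not overlap between tumours and lungs, and with it as a covariate 4 pathway genes were called in Rb/p53/p130 tumours and 5 in Rb/p53 tumours, in place of 15 and 17, while calls over all genes came to 5.17% in Rb/p53/p130 and 6.08% in Rb/p53 tumours, in place of 30.9% and 38.8%. Fitting only the compared groups gave 25 calls in Rb/p53/p130 tumours, with 43.1% of all genes called. The genes gained were Tgfb3, Bmp2, Bmp4, Bmp5, Bmp7, Inhbb, Bmp1, Acvr2a, Smad1 and Id2. Between genotypes, array weights gave 1 call (Smad2) with 3.64% of all genes called, where the other settings gave 0. Apart from the Gapdh and compared-group fits, Rb/p53/p130 tumours had 14 to 19 calls and Rb/p53 tumours 16 to 17. The 19 came with array weights, where Bmp4, Bmp7, Acvr2a and Smad1 were gained and 41.1% of all genes were called. Leaving out each array in turn gave 10 to 14 calls in Rb/p53/p130 and 13 to 17 in Rb/p53 tumours. The lowest count in each was that without lung 2. With the array number as a block, 17 genes were called in Rb/p53 tumours, 16 of them the same, with Acvr2a lost and Bmp2 gained. The numbers shared by tumours and lungs were not taken to pair them, and no paired analysis was possible for the other comparisons because they share no numbers. Leaving out tumours 3, 6 and 10, which had the highest endothelial means and were chosen after seeing the data, gave 16 calls, with Acvr2a and Smad1 lost and Acvr1 gained, and 0 between genotypes. The mean of its probe sets turned Bmpr1a in Rb/p53 tumours to -0.42 (limma adjusted p = 0.038). Leaving out each tumour gave 1 to 4 called correlations, in place of 3. With 2 lungs, differences under 1 log2 unit were seldom called, and Smad9 and Nog lay too low to measure.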
